A study of Homo sapiens with 18 samples.

Results

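The S100 family is a set of small calcium-binding proteins, and 8 of its genes were followed here through every library of the study: S100P, S100A4, S100A6, S100A8, S100A9, S100A10, S100A11 and S100A13. They were picked by gene symbol, with earlier results of these data known, and were 8 of the 41285 genes counted. The cells were K562, a human chronic myeloid leukaemia line with erythroid features. Messenger RNA of 3 K562 lines was read in 18 libraries that fall into 9 groups of 2. The study manipulated SAMD9, an interferon-induced gene whose protein restrains cell growth.

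The parental line, K562[parental], stayed without treatment or received interferon alpha (IFN) at 1000 U/mL for 24 hours. The line K562[VPR]-D9 (VPR-D9 below) carried a doxycycline-inducible dCas9-VPR, a nuclease-dead Cas9 fused to a transcriptional activator. It was studied without treatment and with doxycycline alone, in groups coded D2000 and D6 in the sample titles, and no IFN group of this line was analysed here. The line K562[KRAB]-D9 (KRAB-D9 below) carried a doxycycline-inducible dCas9-KRAB, a nuclease-dead Cas9 fused to a repressor. Its 4 groups had no treatment, IFN, doxycycline alone, and both agents, with doxycycline begun 24 hours before IFN and continued with it. The protocol gives 2 µg/mL as the doxycycline concentration, and whether D6 received that concentration is not known here. The sources used here do not give the meaning of D2000 and D6, the length of doxycycline treatment without IFN, or whether an engineered line is 1 clone. Parental cells with doxycycline were not analysed here, so effects of doxycycline itself and of the induced dCas9 protein cannot be told apart.

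S100 proteins mostly work as dimers that change shape when calcium binds and then grip target proteins, among them annexins, myosin, ezrin and other parts of the membrane and cytoskeleton. Several are also released from cells and act on receptors such as RAGE (gene AGER) and TLR4. Most human S100 genes sit side by side on chromosome 1 in the epidermal differentiation region, while S100P lies apart on chromosome 4. In blood cells the family is best known for S100A8 and S100A9, which together form calprotectin in neutrophils and monocytes.

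The family genes differed in sequence just upstream of their start sites, and the stretches of 6 of them are shown because these genes carried the differences between lines and treatments described below. Each stretch is the 250 bases before a RefSeq start site (GRCh38.p14), written 5′ to 3′ on the strand of the gene, and capitals mark the letters TATAA. The S100A6 stretch is chr1:153535992-153536241 (minus strand) and the S100A10 stretch is chr1:151993860-151994109 (minus strand), the genes whose RNA was nearly missing from one or both engineered lines. The S100P stretch is chr4:6693628-6693877 (plus strand), a gene lowered by doxycycline in KRAB-D9 cells. The S100A4 stretch is chr1:153545807-153546056 (minus strand), and the S100A13 stretch is chr1:153627506-153627755 (minus strand), which belongs to 1 of 3 start sites of that gene. S100A4 and S100A13 rose together in VPR-D9 cells. The S100A11 stretch is chr1:152037005-152037254 (minus strand), the most abundant of the genes, which differed between all 3 lines and fell with doxycycline in KRAB-D9 cells.
S100A6: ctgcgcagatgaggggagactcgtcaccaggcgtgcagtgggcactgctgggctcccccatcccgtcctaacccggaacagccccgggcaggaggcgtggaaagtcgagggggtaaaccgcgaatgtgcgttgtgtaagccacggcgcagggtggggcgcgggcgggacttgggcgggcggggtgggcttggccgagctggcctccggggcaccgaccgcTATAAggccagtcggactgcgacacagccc
S100A10: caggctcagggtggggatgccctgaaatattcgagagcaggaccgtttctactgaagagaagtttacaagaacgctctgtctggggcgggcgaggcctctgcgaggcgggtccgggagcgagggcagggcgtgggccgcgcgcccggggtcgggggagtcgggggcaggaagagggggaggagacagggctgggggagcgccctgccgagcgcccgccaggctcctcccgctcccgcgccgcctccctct
S100P: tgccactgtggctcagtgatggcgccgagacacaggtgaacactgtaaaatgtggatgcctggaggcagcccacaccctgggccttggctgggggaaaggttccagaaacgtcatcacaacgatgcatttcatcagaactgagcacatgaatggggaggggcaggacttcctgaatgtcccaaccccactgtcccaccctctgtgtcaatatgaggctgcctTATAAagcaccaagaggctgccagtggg
S100A4: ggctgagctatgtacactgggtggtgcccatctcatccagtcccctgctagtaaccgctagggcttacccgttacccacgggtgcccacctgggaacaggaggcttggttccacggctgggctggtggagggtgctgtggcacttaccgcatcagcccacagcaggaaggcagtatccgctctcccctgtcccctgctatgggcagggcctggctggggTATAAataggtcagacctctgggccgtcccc
S100A13: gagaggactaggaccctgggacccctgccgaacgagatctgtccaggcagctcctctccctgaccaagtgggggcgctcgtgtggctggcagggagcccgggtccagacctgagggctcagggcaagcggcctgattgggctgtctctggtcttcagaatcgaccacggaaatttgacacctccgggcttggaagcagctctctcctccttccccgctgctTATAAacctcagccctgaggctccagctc
S100A11: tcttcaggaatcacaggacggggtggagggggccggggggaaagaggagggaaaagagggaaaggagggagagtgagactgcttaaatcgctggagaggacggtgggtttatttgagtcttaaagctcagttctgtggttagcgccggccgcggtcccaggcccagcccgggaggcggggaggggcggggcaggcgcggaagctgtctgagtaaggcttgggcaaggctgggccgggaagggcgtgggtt
TATAA on the gene's own strand, beginning 15 to 40 bases before a start site, was present for S100P, S100A4, S100A6 and S100A9, and for 1 of the 3 start sites each of S100A8 and S100A13. No such match was found in the windows of S100A10 and S100A11. Over all 35116 promoter windows of the same length, 3.91% held TATAA at that position, and 18.9% held it anywhere on either strand. The CpG dinucleotide was counted 24 times each in the S100A6 and S100A10 windows, 15 times in that of S100A11, 7 times in that of S100A4 and 4 times in that of S100P, against a median of 11 over all windows. AGATAA, searched on both strands as a form of the GATA motif, was in 9.17% of all windows and in no window of the 8 genes. These are matches of letters and not measured binding sites.

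The libraries held 32694200 to 63037568 counts, and 22143 genes passed the filter on low counts, among them 6 of the 8 S100 genes. S100A8 and S100A9 did not pass and were not tested. The 2 libraries of KRAB-D9 with IFN, one of them the shallowest, differed from each other by 14.1 times counting noise, against 4.33 to 5.56 times in the other groups. SAMD9, the targeted gene, averaged 9.18 CPM (the usual depth-scaled count, here with TMM) in untreated parental cells and 161 with IFN. It averaged 60.6 in untreated VPR-D9 cells, 961 in D2000 and 948 in D6, and in KRAB-D9 cells 0.557 without treatment, 54.2 with IFN, 0.0585 with doxycycline and 0.797 with both. It was higher with IFN and with the induced activator, lower with the induced repressor, and already different between the untreated lines. As markers of the erythroid features of K562, 10 erythroid genes were all detected in every group, with a summed level of 508 to 4010 CPM per library. Detection alone does not establish the identity of the cells, since 8 fibroblast or epithelial genes also summed to 572 to 827 CPM per library.

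Levels compared between genes were taken per length, as RPKM (CPM per kilobase of the gene's counted length), averaged over the 18 libraries. S100A11 stood far above the rest at 127 RPKM. S100A4 followed at 6.06, S100A13 at 4.44, S100P at 2.39, S100A6 at 1.46 and S100A10 at 0.617. The calprotectin genes were lowest, at 0.117 RPKM for S100A9 and 0.0441 for S100A8. Every tested family gene differed between some groups, and the order of the 9 group means was different for nearly every gene, as the plot of all 8 genes by library shows. For S100A8 and S100A9 the libraries overlapped in all 8 pairs of neighbouring groups, so their order is not resolved. The order was resolved only in part for S100P and S100A4 (5 of 8 pairs overlapping), S100A6 and S100A10 (6 of 8) and S100A13 (4 of 8). For S100A11 0 of 8 pairs overlapped.

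**Figure D1:**
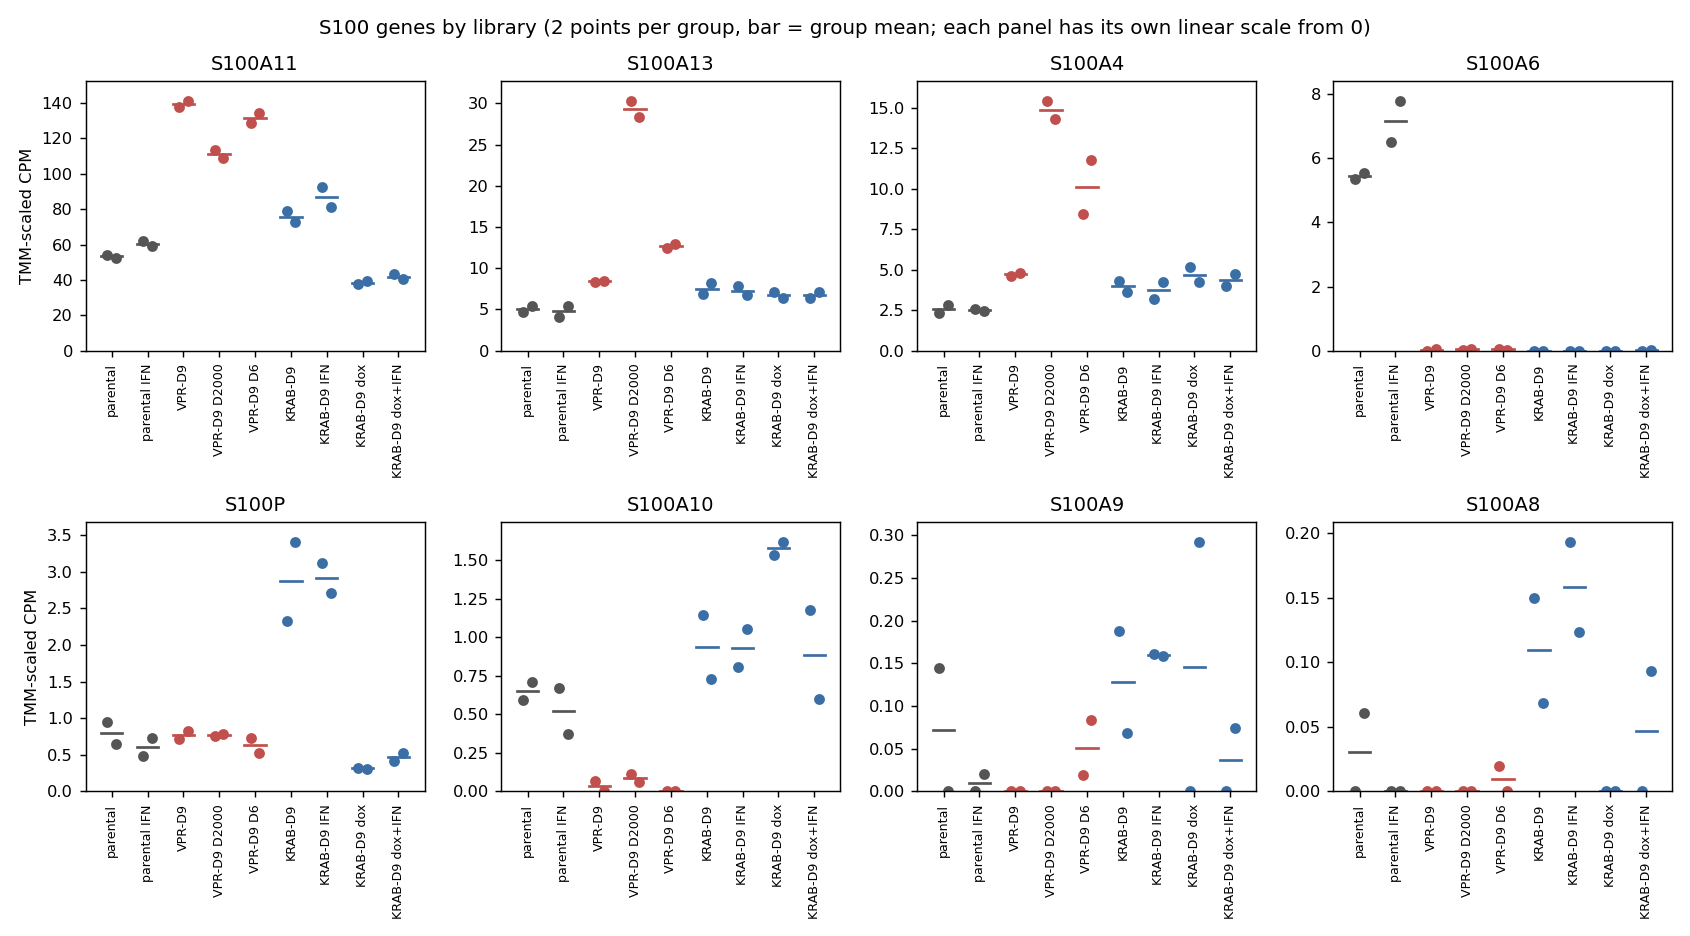
TMM-scaled CPM of the 8 S100 genes in each of the 18 libraries (vertical axis, linear and starting at 0, a separate scale per gene) against group (horizontal axis). Points are libraries, bars are means of 2, with parental cells in grey, VPR-D9 in red and KRAB-D9 in blue. S100A6 was at 5.37 to 7.79 CPM in the parental libraries and near 0 elsewhere, S100A10 was near 0 in VPR-D9 libraries, S100P was highest in KRAB-D9 cells without doxycycline, and S100A4 and S100A13 were highest in D2000.

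The first comparison was between the untreated lines, which carry the state from which each treatment started. S100A6 was expressed in parental cells and all but missing from both engineered lines. S100A10 was nearly missing from VPR-D9 cells and present in the other lines. S100A11, S100A4 and S100A13 were higher in both engineered lines than in parental cells, and S100P was higher in KRAB-D9 cells. Of the 6 tested genes 5 were called between VPR-D9 and parental cells (3 higher, 2 lower), where 36.8% of all tested genes were called (18.5% higher, 18.2% lower). Between KRAB-D9 and parental cells 5 of 6 were called (4 higher, 1 lower), against 28.5% of all genes (14.2% higher, 14.3% lower). Between VPR-D9 and KRAB-D9 cells 3 of 6 were called (1 higher in VPR-D9, 2 lower), against 39.3% (19.6% higher, 19.7% lower). These comparisons share untreated libraries. The median log2 difference of the 6 genes was 0.34 for VPR-D9 and 0.55 for KRAB-D9, against 0.00 and 0.01 over all genes. Each construct was in 1 line, so the construct and any other difference between the lines cannot be told apart. Cell type markers differed between the untreated lines too. The 10 erythroid genes summed to a mean of 1950 CPM in parental, 1260 in VPR-D9 and 3130 in KRAB-D9 cells. Against parental cells, 1 of them was called higher and 7 lower in VPR-D9, and 10 higher and 0 lower in KRAB-D9. The 12 counted myeloid genes summed to 65.8, 116 and 57.7 CPM in that order. The part of these differences in the S100 values was not tested.

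S100A6 encodes calcyclin, which binds annexins and the calcyclin-binding protein CACYBP. It was read at 5.37 and 5.56 CPM in untreated parental cells and at 6.53 and 7.79 CPM in parental cells with IFN, from 275 to 374 counts per library. In all 6 VPR-D9 libraries together there were 13 counts, at 0 to 4 per library, and in all 8 KRAB-D9 libraries together 1 count. Every engineered library lay far below the lowest parental one. A stretch of 23 exon bases (2.369%) is shared with an antisense gene. Between untreated groups, 573 counts in parental cells stood against 3 in VPR-D9 cells, a ratio of 224 after scaling with an exact 95% counting interval of 76.2 to 1090. Against KRAB-D9 cells, with 0 counts, parental cells were at least 177-fold higher, taking 3 counts over the group as the limit. edgeR's quasi-likelihood test gave Benjamini-Hochberg adjusted p = 6.38e-14 for VPR-D9 and 1.06e-13 for KRAB-D9. Counting intervals and limits cover counting error only. In bulk libraries, fewer cells with an RNA and less of it per cell cannot be told apart.

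The absence held under every treatment. S100A6 had 6 counts in D2000 and 4 in D6, and in KRAB-D9 cells 0 with IFN, 0 with doxycycline and 1 with both. At this depth 3 counts over a group correspond to 0.0217 to 0.0341 CPM. In parental cells the IFN libraries were both above the untreated ones, with a log2 difference of 0.39 ± 0.32 (edgeR adjusted p = 0.673), which was not called.

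S100A10 encodes p11, an S100 protein that does not need calcium and that pairs with annexin A2. It was at 0.594 and 0.707 CPM in untreated parental cells, at 1.14 and 0.728 in untreated KRAB-D9 cells, and at 0.0669 and 0 in untreated VPR-D9 cells. Every VPR-D9 library, at 0.111 CPM or less, lay below every library of the other lines. The log2 difference from parental cells was -4.22 ± 0.75 for VPR-D9 (edgeR adjusted p = 1.62e-05), from 4 counts against 68. The direct difference between VPR-D9 and KRAB-D9 was -4.75 ± 0.74 (adjusted p = 1.43e-06). KRAB-D9 and parental cells differed by 0.53 ± 0.53, which was not called. Leaving out any 1 library kept both calls, with log2 differences from -8.11 to -3.23 and from -8.64 to -3.76. The widest of these values come from leaving out the one untreated VPR-D9 library that held a count.

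S100A11, a partner of annexin A1 that acts in membrane repair and growth control, was the most abundant member in every line. It was at 54.1 and 52.6 CPM in untreated parental cells, at 137 and 141 in untreated VPR-D9 cells and at 78.8 and 72.6 in untreated KRAB-D9 cells. The 3 lines did not overlap. VPR-D9 exceeded parental cells by 1.38 ± 0.06 on the log2 scale (edgeR adjusted p = 3.75e-22), KRAB-D9 exceeded them by 0.51 ± 0.06 (3.3e-09), and VPR-D9 exceeded KRAB-D9 by 0.88 ± 0.06 (2.17e-16). Over the 9 groups its level ran from untreated VPR-D9 cells at the top to KRAB-D9 with doxycycline at the bottom, with no overlap between the libraries of neighbouring groups in that order.

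S100P, which is known to bind and activate ezrin, was at 0.954 and 0.646 CPM in untreated parental cells and at 0.719 and 0.821 in VPR-D9 cells. In untreated KRAB-D9 cells it was at 2.32 and 3.41. The KRAB-D9 libraries lay above all others, with a log2 difference of 1.83 ± 0.36 from parental cells (edgeR adjusted p = 0.000107) and with VPR-D9 lower than KRAB-D9 by -1.89 ± 0.36 (3.56e-05). VPR-D9 and parental cells differed by -0.06 ± 0.37, which was not called.

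S100A4 encodes metastasin, which binds the non-muscle myosin heavy chain MYH9. It was at 2.34 and 2.83 CPM in untreated parental cells, 4.63 and 4.78 in VPR-D9 and 4.31 and 3.64 in KRAB-D9 cells. Both engineered lines were above the parental libraries, by 0.87 ± 0.18 (edgeR adjusted p = 0.000169) and 0.63 ± 0.19 (0.00945) on the log2 scale. The call for KRAB-D9 was lost without parental replicate 1 (0.49, adjusted p = 0.144) or without KRAB-D9 replicate 1 (0.49, 0.139). S100A13, which takes part in the non-classical release of FGF1, was at 4.70 and 5.41 CPM in parental cells, 8.38 and 8.41 in VPR-D9 and 6.86 and 8.21 in KRAB-D9 cells. It was higher than in parental cells by 0.73 ± 0.13 (2.27e-05) and 0.57 ± 0.14 (0.00121). For neither gene was the difference between the engineered lines called (0.24 ± 0.18 and 0.16 ± 0.13).

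The calprotectin genes were close to the limit of detection in these cells. S100A8 had 33 counts and S100A9 60 counts in all 18 libraries together, with at most 8 and 15 in 1 library. Of these, 29 and 46 counts fell in the 8 KRAB-D9 libraries. In that line S100A8 had 11 counts untreated, 13 with IFN, 0 with doxycycline and 5 with both agents. S100A9 had 13, 14, 15 and 4 in the same order, and these differences were not tested. Summed over a line, S100A8 was at 0.0733 CPM in KRAB-D9 (exact Poisson 95% interval 0.0491 to 0.105), 0.0148 in parental (0.00306 to 0.0434) and 0.00277 in VPR-D9 cells (7.02e-05 to 0.0154). S100A9 was at 0.116 CPM in KRAB-D9 (0.0851 to 0.155), 0.0445 in parental (0.0204 to 0.0845) and 0.0139 in VPR-D9 cells (0.0045 to 0.0323). The sums pool libraries under different treatments, and the intervals cover counting only. For S100A9, all 15 counts of KRAB-D9 cells with doxycycline came from replicate 2, so the level of that group rests on 1 library.

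The next comparison asked what doxycycline, which induces the repressor, did in KRAB-D9 cells. S100P fell 9.01-fold and S100A11 1.97-fold, while S100A4, S100A13 and S100A10 were not called. Of the 6 tested genes 2 were called, both lower, where 24.7% of all genes were called (12% higher, 12.7% lower). With IFN present 2 of 6 were called, both lower, against 22.3% of all genes (10.4% higher, 11.9% lower). Cells given both agents, set against untreated cells, gave 2 of 6, both lower, against 25% (12.5% in each direction). The last of these shares its control libraries with the first. The median log2 difference of the 6 genes was -0.08 without IFN and -0.09 with it, against 0.02 and 0.01 over all genes.

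S100P was at 2.32 and 3.41 CPM in untreated KRAB-D9 cells and at 0.319 and 0.312 with doxycycline. With IFN it was at 3.12 and 2.71, and with both agents at 0.415 and 0.522. All 4 libraries without doxycycline lay above all 4 libraries with it. The log2 difference was -3.17 ± 0.40 without IFN (edgeR adjusted p = 6.32e-08), a 9.01-fold lower level. With IFN present it was -2.63 ± 0.38 (1.12e-06), a 6.18-fold lower level. The difference between these 2 effects was 0.54 ± 0.55 (adjusted p = 0.850), which was not called. With doxycycline S100P was read from 32 counts over the 2 libraries, and both lay below the lowest parental or VPR-D9 library (0.489 CPM). Leaving out any 1 library gave log2 differences from -3.43 to -2.88, all called.

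S100A11 was at 78.8 and 72.6 CPM without treatment and at 37.6 and 39.2 with doxycycline. With IFN it was at 92.7 and 81.4, and with both agents at 43.2 and 40.7. The doxycycline libraries were the lowest of all 18, below those of parental cells too. The log2 difference was -0.98 ± 0.06 without IFN (edgeR adjusted p = 3.35e-16) and -1.05 ± 0.06 with it (4.74e-17). The difference between the 2 effects was -0.07 ± 0.08 (0.889), which was not called.

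S100A10 stood at 1.53 and 1.62 CPM with doxycycline against 1.14 and 0.728 without, and at 1.17 and 0.596 with both agents against 0.805 and 1.05 with IFN alone. The doxycycline libraries were both above the untreated ones, but the log2 difference of 0.75 ± 0.51 was not called (edgeR adjusted p = 0.331). S100A4 was at 5.14 and 4.25 CPM with doxycycline and S100A13 at 7.10 and 6.42. Their log2 differences were 0.24 ± 0.18 and -0.15 ± 0.13, neither called, and their libraries overlapped with the untreated ones.

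Marker genes of other cell types moved in the same libraries, where 12% of all genes were called higher and 12.7% lower. The 10 erythroid genes summed to 3120 and 3150 CPM without and 3740 and 3640 with doxycycline, and 7 of 10 were called higher. Of 6 megakaryocyte genes 4 were counted and 3 tested. Their sum went from 34.1 and 34.5 to 9.81 and 10.8 CPM, with GP6 and ITGA2B called lower. Of 13 myeloid genes 12 were counted and 9 tested. Their sum went from 55.8 and 59.7 to 34.2 and 33.8 CPM, with CD33 and LYZ called lower, and ELANE and FCN1 were at 0 in both groups. Of 8 fibroblast or epithelial genes 7 were tested and 6 were called lower, among them KRT8, KRT18 and COL1A2, with sums of 815 and 827 falling to 603 and 572 CPM. Of 6 lymphoid genes 5 were tested and CD3D was called lower, with sums of 7.97 and 7.64 against 3.79 and 3.61 CPM. The part of such changes in the S100 values was not tested.

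**Figure D2:**
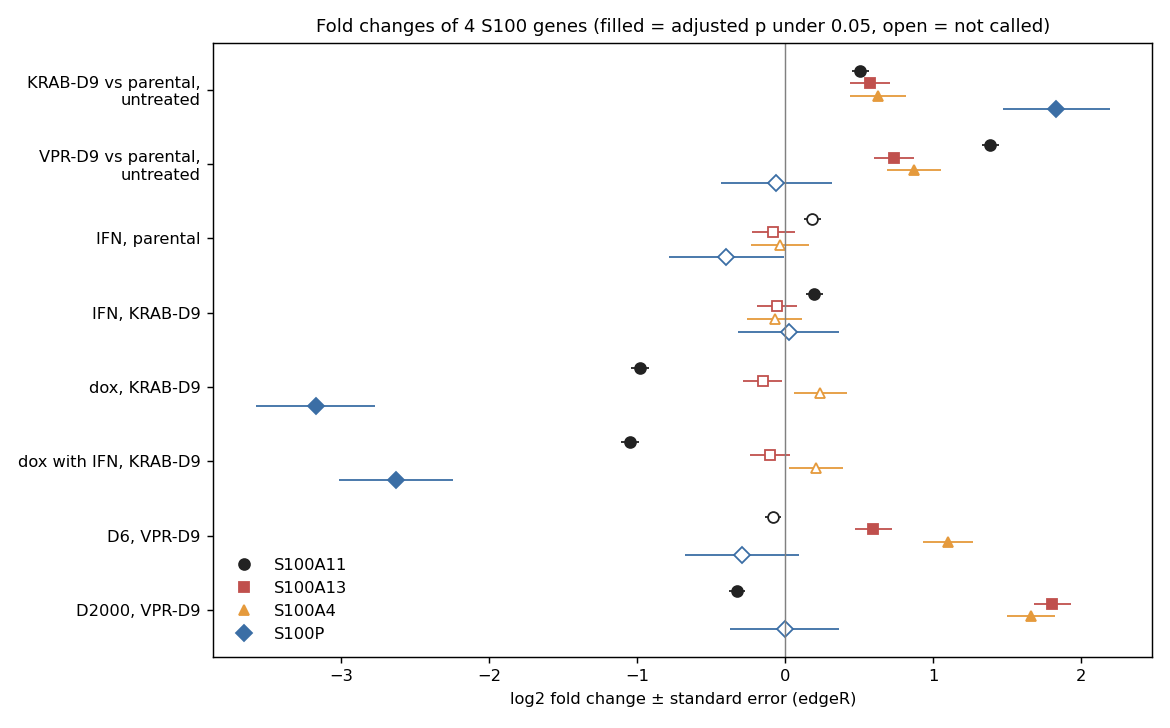
Log2 fold changes with standard errors (horizontal axis) of S100A11, S100A13, S100A4 and S100P in 8 comparisons (vertical axis), from 1 edgeR model of 18 libraries. Filled symbols passed a Benjamini-Hochberg adjusted p of 0.05. S100P lay at -3.17 and -2.63 with doxycycline in KRAB-D9 cells and near 0 in VPR-D9 cells, while S100A13 and S100A4 lay at 1.81 and 1.66 in D2000.

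In VPR-D9 cells, doxycycline induces the activator, and 2 doxycycline groups were compared with untreated cells. S100A13 rose 3.49-fold and S100A4 3.16-fold in D2000, and both rose less in D6, S100A11 fell slightly in D2000, and S100P did not pass the test. Of the 6 tested genes 3 were called in D2000 (2 higher, 1 lower), where 46.1% of all tested genes were called (21.9% higher, 24.2% lower). In D6, 2 of 6 were called, both higher, against 6.6% of all genes (3.19% higher, 3.41% lower). The 2 groups share the untreated libraries. The median log2 difference of the 6 genes was 1.06 in D2000 and 0.26 in D6, against 0.06 and -0.01 over all genes. The median in D2000 lies between the values of S100A6 (0.78 ± 0.99) and S100A10 (1.35 ± 0.91). Neither gene was called and both had few counts, so that median says little about the family. In the direct comparison of D6 with D2000, 4 of 6 were called (1 higher, 3 lower), against 40.4% of all genes (21.7% higher, 18.8% lower). SAMD9 itself was at nearly the same level in both groups, as given above.

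S100A13 was at 8.38 and 8.41 CPM in untreated VPR-D9 cells, at 30.3 and 28.4 in D2000 and at 12.4 and 13 in D6. The 3 groups did not overlap, and D2000 held the highest values of the gene in the study. The log2 difference was 1.81 ± 0.12 in D2000 (edgeR adjusted p = 9.55e-16) and 0.60 ± 0.13 in D6 (0.00148), a 1.51-fold rise. D6 was below D2000 by -1.21 ± 0.12 (5.36e-11). S100A13 shares 235 of its 2216 exon bases (10.6%) with S100A1 on the opposite strand and 536 (24.19%) with a transcript on its own strand, in GENCODE v29. How the counting used strand is unknown here, so reads of S100A13 and S100A1 may not be fully separated.

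S100A4 was at 4.63 and 4.78 CPM in untreated VPR-D9 cells, at 15.4 and 14.3 in D2000 and at 8.45 and 11.8 in D6. All 4 treated libraries were above every other library of the study. The log2 difference was 1.66 ± 0.16 in D2000 (edgeR adjusted p = 3.39e-11) and 1.10 ± 0.17 in D6 (1.18e-05), a 2.14-fold rise. D6 was below D2000 by -0.56 ± 0.16 (0.0037), a call lost without D6 replicate 1 (-0.34, adjusted p = 0.192). The 2 genes had closely similar profiles, with a Pearson r of 0.96 over the 9 group means of log2 CPM. Both genes were read in the same libraries, and the VPR-D9 groups set most of the range.

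S100A11 was at 113 and 109 CPM in D2000 against 137 and 141 without treatment, and at 129 and 134 in D6. The D2000 libraries were the lowest of the line. The log2 difference was -0.33 ± 0.05 in D2000 (edgeR adjusted p = 2.85e-06) and -0.08 ± 0.05 in D6 (0.498), which was not called, and D6 was above D2000 by 0.24 ± 0.05 (0.00029). The value in D2000 depended on the scaling. Scaled by library totals in place of TMM, it was -0.10 (0.140), with the median of all genes moved up by 0.23, and the difference of D6 from D2000 was 0.05 (0.495).

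S100P was at 0.751 and 0.787 CPM in D2000 and 0.733 and 0.522 in D6, against 0.719 and 0.821 without treatment. The groups overlapped, and the log2 differences of 0.00 ± 0.37 and -0.29 ± 0.38 were not called. S100A10 had 12 counts in D2000, 0 in D6 and 4 without treatment. Between D2000 and D6 this is at least 2.89-fold, with an edgeR adjusted p of 0.00955 that was lost without D2000 replicate 1 (0.0562) and without either D6 library (0.071 and 0.0626). Neither group's difference from untreated cells was called, though that of D2000 passed without untreated replicate 1 (5.23, 0.0273), which held all 4 untreated counts.

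In these libraries too, markers of other cell types moved. Of all genes 21.9% were called higher and 24.2% lower in D2000, and 3.19% and 3.41% in D6. The 10 erythroid genes summed to 1270 and 1260 CPM in untreated cells, 513 and 508 in D2000 and 1120 and 1140 in D6, with 9 of 10 called lower in D2000 and 3 of 10 in D6. The 12 counted myeloid genes summed to 116 and 117, 322 and 317, and 167 and 163 CPM, with FCN1 at 0 in all 3 groups and ELANE and MPO at 0 in D6. Most of that rise was ITGAM, the integrin alpha M gene, at 7.41 and 8.34 CPM untreated, 192 and 191 in D2000 and 58.5 and 56.6 in D6. Of 9 tested myeloid genes 3 were called higher and 1 lower in D2000, and 1 higher and 0 lower in D6. The 4 counted megakaryocyte genes summed to 15.3 and 12.3, 40.9 and 43.0, and 22.2 and 20.8 CPM, with PPBP at 0. Of 3 tested megakaryocyte genes 3 were called higher in D2000 and 2 in D6. Lymphoid genes summed to 10.3 and 11.5 CPM untreated and 18.2 and 18 in D2000, and fibroblast or epithelial genes to 683 and 687 and to 810 and 780. Of 5 tested lymphoid genes 3 were called higher in D2000 and 1 lower (CD3D, -1.59 ± 0.26). Of 7 tested fibroblast or epithelial genes 3 were called higher there and 2 lower, among them EPCAM (-1.13 ± 0.06). The part of these marker changes in the S100 values was not tested.

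IFN was compared with no treatment in parental and KRAB-D9 cells. Small rises of S100A11 were seen in each setting, of which 1 of 3 was called and that call was not stable, and S100A6 was higher in both parental IFN libraries without a call. In parental cells 0 of 6 genes were called by edgeR and 0 by DESeq2, against 4.34% of all genes (3.03% higher, 1.31% lower), and 1 had an unadjusted p under 0.05. In KRAB-D9 cells 1 of 6 was called, against 6.4% (3.98% higher, 2.42% lower). With doxycycline present IFN gave 0 of 6 by edgeR and 0 by DESeq2, against 4.89% (3.12% higher, 1.77% lower), with 1 at an unadjusted p under 0.05. The median log2 difference of the 6 genes was -0.06 in parental and 0.00 in KRAB-D9 cells.

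S100A11 went from 54.1 and 52.6 CPM to 62.0 and 59.1 in parental cells, from 78.8 and 72.6 to 92.7 and 81.4 in KRAB-D9 cells, and from 37.6 and 39.2 to 43.2 and 40.7 in KRAB-D9 cells with doxycycline. In each setting both IFN libraries were above both of their controls. The log2 differences were 0.18 ± 0.06 (edgeR adjusted p = 0.0635), 0.20 ± 0.06 (0.0279) and 0.13 ± 0.06 (0.286). The call in KRAB-D9 cells was lost without untreated replicate 2 (0.14, adjusted p = 0.354), without IFN replicate 1 (0.10, 0.437) and when these 4 libraries were fitted alone (0.19, 0.262). In parental cells the rise passed the threshold when fitted alone (0.18, 0.0327) or scaled by library totals (0.19, 0.0465). The difference between the IFN effects in the 2 lines was 0.01 ± 0.08 (0.994).

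S100A4, S100A13, S100P and S100A10 were not called with IFN in either line. S100A4 was at 2.55 and 2.48 CPM in parental and 3.22 and 4.25 in KRAB-D9 cells with IFN, with log2 differences of -0.04 ± 0.20 and -0.07 ± 0.18. S100A13 was at 4.12 and 5.44 and at 7.79 and 6.76 CPM, with -0.08 ± 0.14 and -0.06 ± 0.14. S100P was at 0.489 and 0.729 and at 3.12 and 2.71 CPM, with -0.40 ± 0.39 and 0.02 ± 0.34. S100A10, at 0.673 and 0.375 and at 0.805 and 1.05 CPM, gave -0.31 ± 0.54 and 0.00 ± 0.52. No difference between the IFN effects of the 2 lines was called for any of the 6 genes (0 by edgeR, 0 by DESeq2, 0 at an unadjusted p under 0.05), where 0.303% of all genes were called (0.145% higher, 0.158% lower). Nor was any interaction of IFN with doxycycline (0, 0 and 0), where 0.158% of all genes were called (0.0632% higher, 0.0948% lower).

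The difference between the doxycycline effects in the 2 engineered lines was tested directly. The effect in D2000 minus that in KRAB-D9 cells was called for 4 of 6 genes, all higher, where 31.3% of all genes were called (12.2% higher, 19.1% lower). For D6 it was also 4 of 6, all higher, against 15.5% (7.87% higher, 7.63% lower). Both share the KRAB-D9 libraries and the untreated VPR-D9 libraries. For S100P the difference was 3.17 ± 0.55 with D2000 (edgeR adjusted p = 9.85e-06) and 2.88 ± 0.56 with D6 (0.000196). For S100A13 it was 1.96 ± 0.18 (1.79e-11) and 0.75 ± 0.18 (0.0032). For S100A4 it was 1.42 ± 0.24 (8.35e-06) and 0.86 ± 0.24 (0.0111), and for S100A11 0.66 ± 0.08 (1.15e-08) and 0.90 ± 0.08 (3.13e-11). S100A10 gave 0.60 ± 1.00 and, with 0 counts in D6, no usable value there, and S100A6 had too few counts in both lines.

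The remaining S100 genes were taken as a list of 13, of which 10 were counted and 7 tested. In D2000, 3 of 7 were called higher and 1 lower, against 21.9% and 24.2% of all genes, and the median of the 7 was 1.71 on the log2 scale against 0.06 over all genes. That median is the value of S100A2 (1.71 ± 1.52), which had 12 counts in D2000 against 3 and was not called. S100A1, the form known from heart muscle, went from 3.40 and 3.22 to 8.01 and 8.14 CPM (1.29 ± 0.16, edgeR adjusted p = 8.43e-09), and S100A16 from 0.452 and 0.474 to 2.02 and 1.70 (2.00 ± 0.51, 0.00121). S100A14 had 47 counts in D2000 against 3, a ratio of 14 with an exact 95% counting interval of 4.5 to 70.2. Its edgeR call (0.0328) was lost without either D2000 library or without untreated replicate 2. S100A7A was lower, with 3 counts against 17, a ratio of 6.35 (1.84 to 33.8), and it was named after its values were seen. In D6 and with IFN in parental or KRAB-D9 cells, 0 of the 7 were called, against 6.6%, 4.34% and 6.4% of all genes. Doxycycline in KRAB-D9 cells, with 24.7% of all genes called, lowered 1, S100A5, from 32 counts to 3, a ratio of 11.1 (3.48 to 56.7). That call (edgeR adjusted p = 0.0295) was lost without either doxycycline library or without untreated replicate 2.

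S100A4, S100A16, S100A14, S100A13 and S100A1 lie close together, from 153543613 to 153632039 on chromosome 1, and all were called higher in D2000. S100A2 in the same stretch was not, nor were S100A5 and S100A6 beside it. For comparison, the genes from 151782915 to 153831360 on chromosome 1 that are not of the S100 family were counted. Of 49 such genes 19 were tested. The interval is far wider than the stretch above and reaches to THEM4 and TDRKH, at -1663.7 and -1764.5 kb from the start of S100A6. In D2000, 5 of 19 were called higher and 4 lower, against 21.9% and 24.2% of all genes, a share near that over all genes. CHTOP (-0.14 ± 0.05) turned to 0.093 and lost its call with library totals. Its call was also lost without the filter (-0.13), without untreated replicate 1 (-0.12) and without D2000 replicate 2 (-0.12). ILF2, an RNA-binding factor of the cell nucleus, fell from 349 and 346 to 206 and 202 CPM (-0.77 ± 0.04, edgeR adjusted p = 1.75e-20). INTS3, a subunit of the Integrator complex, rose from 59.6 and 57.0 to 95.5 and 96.8 (0.72 ± 0.05, 2.06e-14), and THEM4 fell by 0.44 ± 0.06 on the log2 scale (5.26e-08). NPR1, the receptor for atrial natriuretic peptide, had 302 counts in D2000 and 29 in D6 against 0 in untreated cells, at least 89.8-fold and 11.9-fold higher. NPR1 had no count in any KRAB-D9 library. DESeq2's Wald test did not call NPR1 in D2000 (adjusted p = 0.223).

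With doxycycline in KRAB-D9 cells, 2 of these 19 genes were called higher (CHTOP, 0.24 ± 0.05, and TDRKH, 0.40 ± 0.10) and 2 lower, among them ILF2 (-0.20 ± 0.04, edgeR adjusted p = 3.48e-05), against 24.7% of all genes. TDRKH lost its call without untreated replicate 2 (0.0622). Around S100P on chromosome 4, 12 other genes lay from 6493878 to 6897170 and 11 were tested. With doxycycline in KRAB-D9 cells, 1 was called higher (KIAA0232, 0.24 ± 0.05) and 2 lower (MRFAP1, -0.17 ± 0.04, and AC093323.3, -0.17 ± 0.06), against 24.7% of all genes. KIAA0232 lost its call without untreated replicate 1 (edgeR adjusted p = 0.0741), and AC093323.3 with library totals (0.13) and in 3 of 4 leave-one-out fits (0.0956 to 0.427). Each of these was far smaller than the log2 difference of -3.17 of S100P itself.

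**Figure D3:**
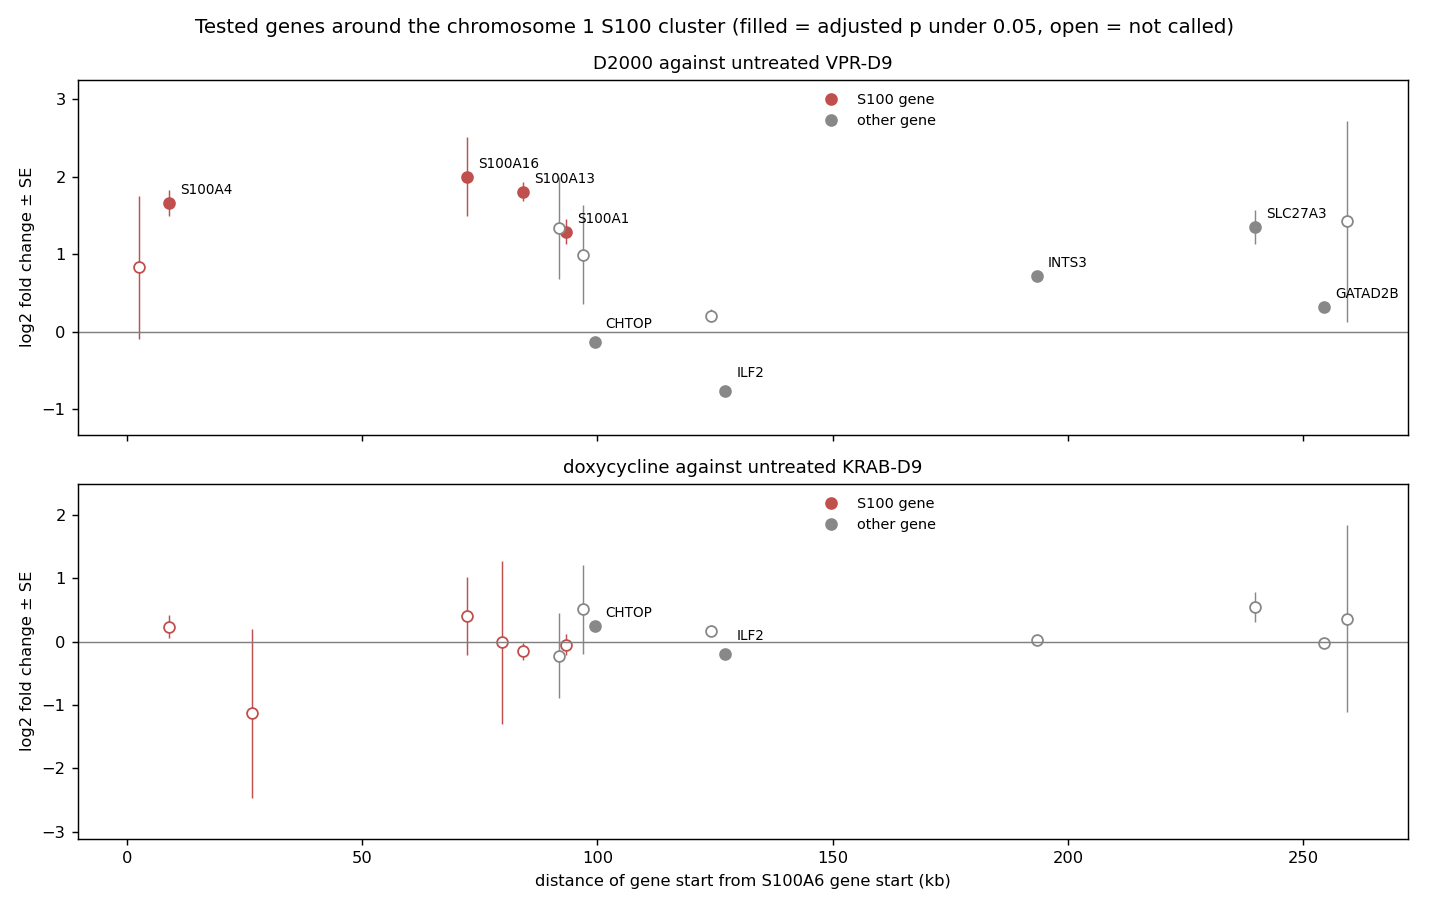
Log2 fold change with standard error (vertical axis) of the tested genes around the S100 cluster of chromosome 1 against the distance of their start from that of S100A6 in kilobases (horizontal axis), for D2000 (top) and for doxycycline in KRAB-D9 cells (bottom). S100 genes are red, others grey, and filled points passed an adjusted p of 0.05. Genes with 3 counts or fewer in a compared group (such as NPR1 and S100A14 in D2000) are left out. Only genes that start at a higher coordinate than S100A6 are drawn, so S100A6, S100A10 and S100A11 are not shown. S100A11 was called lower in both comparisons (-0.33 in D2000 and -0.98 with doxycycline in KRAB-D9 cells). S100A4, S100A16, S100A13 and S100A1 lay between 1.29 and 2.00 in D2000, and ILF2 lay at -0.77.

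Annexins are calcium-dependent membrane-binding proteins and the best-known partners of S100A10, S100A11 and S100A6. Of 13 annexin genes 12 were counted and 9 tested. In D2000, 5 of 9 rose and 2 fell, against 21.9% and 24.2% of all genes, with a median of 0.38 against 0.06 over all genes. The call of ANXA11, 1 of the 2 that fell (-0.25 ± 0.04), was lost with library totals (-0.02). ANXA9 rose by 1.96 ± 0.12 (edgeR adjusted p = 3.65e-17), ANXA4 by 1.47 ± 0.09 (1.06e-17), and ANXA1, the partner of S100A11, fell by 1.20 ± 0.05 (1.16e-23) on the log2 scale. ANXA2, the partner of S100A10, was not called in D2000 (-0.09 ± 0.04, 0.0835), a comparison with few S100A10 counts in both groups. Between untreated VPR-D9 and parental cells, where S100A10 was lower, ANXA2 was at 274 and 277 against 326 and 339 CPM (-0.27 ± 0.04, 1.42e-06). KRAB-D9 cells also had less ANXA2 than parental cells (-0.23 ± 0.04, 3.61e-05), where S100A10 was not called. In D6, 2 rose and 1 fell, with 6.6% of all genes called. ANXA9 was 0.55 ± 0.12 (0.00258), and the calls of ANXA9, ANXA11 and ANXA6 were each lost on leaving out 2 or more of the 4 libraries in turn. In KRAB-D9 cells, where 24.7% of all genes were called, doxycycline raised 3 (ANXA4 by 0.84 ± 0.09, ANXA9 by 0.49 ± 0.13 and ANXA2 by 0.11 ± 0.04) and lowered ANXA6 (-0.37 ± 0.10). The call of ANXA2 was lost under DESeq2 (0.10, adjusted p = 0.0637), under its size factors, without the filter and in 3 of 4 leave-one-out fits, that of ANXA9 in 2 of 4 and that of ANXA6 in 1 of 4. ANXA1 was at -0.08 ± 0.04 there, not called, where S100A11 fell by 0.98 on the same scale.

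**Figure D4:**
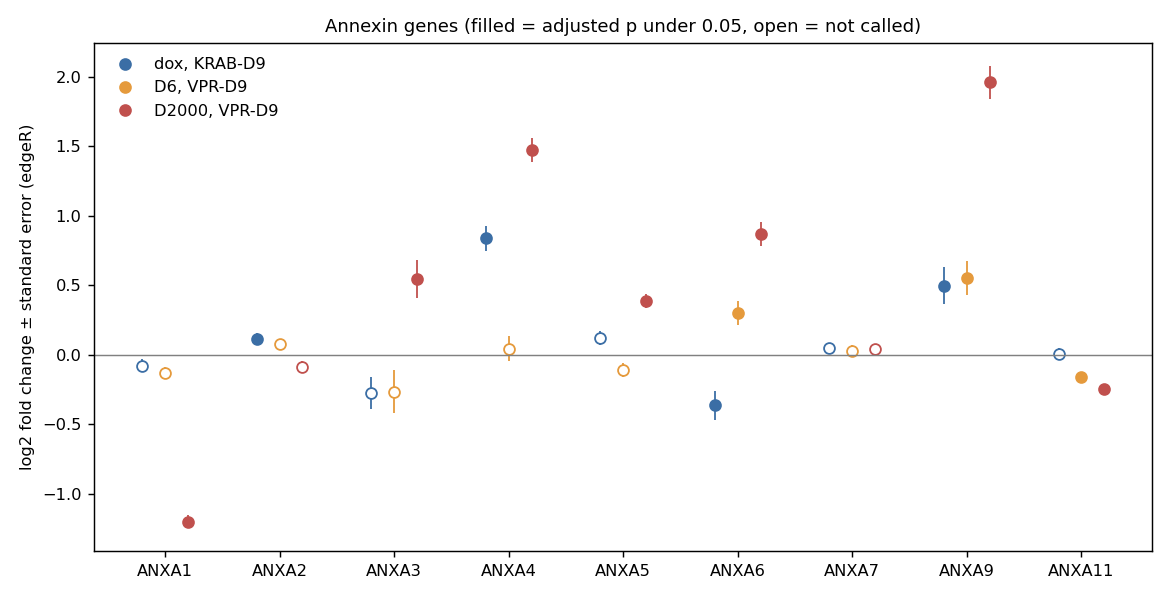
Log2 fold change with standard error (vertical axis) of the 9 tested annexin genes (horizontal axis) for doxycycline in KRAB-D9 cells (blue), D6 (orange) and D2000 (red) in VPR-D9 cells. Filled points passed an adjusted p of 0.05. In D2000, ANXA9 lay at 1.96 and ANXA4 at 1.47, and ANXA1 lay at -1.20.

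Other binding partners and receptors made a list of 20, of which 17 were tested. In D2000, 5 were called higher and 7 lower, with 46.1% of all genes called and a median of 0.18 against 0.06 over all genes. In D6 it was 1 and 3, with 6.6% of all genes called and a median of -0.06 against -0.01. PPFIBP1, the liprin beta-1 gene whose product binds S100A4, went from 3.36 and 3.50 to 14.2 and 10.7 CPM in D2000 and to 6.10 and 6.68 in D6, with log2 differences of 1.86 ± 0.16 (edgeR adjusted p = 1.69e-12) and 0.89 ± 0.17 (0.000371). MYH9, the myosin partner of S100A4, fell by 0.50 ± 0.04 in D2000 and by 0.22 ± 0.04 in D6. CACYBP, the partner of S100A6, fell by 0.71 ± 0.04 in D2000, where S100A6 was near 0 with and without treatment. In the comparisons of untreated lines in which S100A6 was lower, CACYBP was lower too, by -0.38 ± 0.04 in VPR-D9 (8.03e-10) and -0.18 ± 0.04 in KRAB-D9 (0.000594) against parental cells. EZR, the ezrin gene, was lower in D6 (-0.35 ± 0.05) and higher with doxycycline in KRAB-D9 cells (0.33 ± 0.05, 7.38e-07), where S100P fell. AHNAK, which binds the S100A10 and annexin A2 pair, was higher there too (0.42 ± 0.04, 5.82e-11), and PPFIBP1 was lower (-0.96 ± 0.17, 1.98e-05), with 3 called higher and 2 lower in all, against 24.7% of all genes. AHNAK was also far higher in untreated VPR-D9 than in parental cells, at 981 and 1029 against 207 and 212 CPM (2.26 ± 0.04, 6.59e-34). With IFN, AHNAK rose by 0.21 ± 0.04 in parental and in KRAB-D9 cells, a call lost in KRAB-D9 cells when these groups were fitted alone (edgeR adjusted p = 0.0845). IQGAP1 fell by 0.14 ± 0.04 and 0.19 ± 0.04. Its call in parental cells was lost in all 4 leave-one-out fits (0.0928 to 0.404) and without the filter (0.143), and that in KRAB-D9 cells when fitted alone (0.078) and without untreated replicate 1 (0.064).

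C/EBP factors and PU.1 (gene SPI1) act on calprotectin genes in myeloid cells. A list of SPI1 and 6 genes with the CEBP symbol was tested whole. It holds CEBPZ, which shares the name but is a CCAAT-box-binding protein outside the C/EBP family of bZIP factors. In D2000, 0 of 7 were called higher and 4 lower, against 21.9% and 24.2% of all genes, with a median of -0.38 against 0.06. They were CEBPZ (-0.79 ± 0.05), CEBPB (-0.55 ± 0.09), CEBPD (-0.51 ± 0.19, named after its value was seen) and CEBPG (-0.38 ± 0.07), the last of which lost its call with library totals (-0.15, edgeR adjusted p = 0.053). In D6, 0 of 7 were called, against 6.6% of all genes. With doxycycline in KRAB-D9 cells 2 of 7 were called higher and 2 lower, against 12% and 12.7% of all genes. SPI1 fell by 0.58 ± 0.11 (edgeR adjusted p = 3.46e-05) and CEBPZ by 0.40 ± 0.04. CEBPG rose by 0.36 ± 0.07 and CEBPB by 0.25 ± 0.09 (0.0359). The call of CEBPB was lost under DESeq2 (0.24, adjusted p = 0.0538). It was also lost without untreated replicate 1 (0.29), without untreated replicate 2 (0.21) and without doxycycline replicate 2 (0.17). S100A8 and S100A9 stayed at or under 15 counts per library in all of these groups.

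For each family gene averaging at least 1 CPM, the genes with the most similar profile were sought among 13543 genes, by the Pearson r of log2 CPM over the 9 group means. These are descriptions over 9 points that share libraries within a group. S100A6 was closest to SLIT2 (r = 0.99), ROBO2 (0.99) and EDARADD (0.98) with a prior count of 2. With a prior count of 0.5 EDARADD came first, ROBO2 second and SLIT2 at rank 4 (0.97). SLIT2, a secreted guidance ligand, averaged 16.6 CPM in untreated parental cells, 0.176 in VPR-D9 and 0.0227 in KRAB-D9 cells, and its receptor gene ROBO2 7.59, 0.0557 and 0.0602. S100P was closest to SH3BGRL3 (0.94), ZYX (0.92) and FHL3 (0.92). SH3BGRL3 averaged 90.6 CPM in untreated KRAB-D9 cells, 46.4 with doxycycline and 51.7 in untreated parental cells. S100A11 was closest to SLAMF6 (0.99), MBOAT7 (0.98) and SPCS3 (0.98), and SLAMF6 averaged 5.76 CPM in untreated VPR-D9 and 1.97 in KRAB-D9 cells with doxycycline. S100A4 was closest to SCARF2 (0.98), PPP1R3E (0.98) and FBXO44 (0.98), and S100A13 to ZNF710 (0.99), ACVR1B (0.99) and GPR162 (0.99). SCARF2 averaged 1.01 CPM in untreated VPR-D9 cells, 52.3 in D2000 and 12.3 in D6, and GPR162 2.49, 19.2 and 5.45. Among pairs of tested family genes, the most negative r over the same 9 groups was -0.86, for S100A10 and S100A11. S100A10 averaged 0.625 CPM, under the limit of 1 CPM, and was near 0 in the VPR-D9 groups, where S100A11 was highest.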

How the data were processed

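Per the labels, total RNA of K562 cells went into stranded, polyA-selected mRNA libraries. The authors deposited raw counts, whole numbers of reads for each of 41285 genes, in 1 table of 18 libraries. Named in the submitters' processing notes, without order, are STAR 2.7.8a, featureCounts 2.0.2, cutadapt 2.10, FastQC 0.11.9 and the build GRCh38.p13. Which annotation release was used, and whether strand or multi-mapping reads entered the counting, is not given in the sources used here, so overlapping, antisense or duplicated genes are uncertain. Library totals were 32694200 to 63037568 counts.

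Genes were filtered with filterByExpr by group (22143 left), scaled by TMM and fitted in edgeR 4.0.16 (R 4.3.3, limma 3.58.1) with 1 robust quasi-likelihood model of 9 group means, 9 residual degrees of freedom (common BCV, the spread between libraries beyond counting, 0.0569). There were 16 comparisons, adjusted by Benjamini-Hochberg over all tested genes and called at an adjusted p under 0.05. A standard error (±) is the size of the log2 fold change over the square root of F, approximate where counts are few. The fit was tested on simulated data. Where a group held 0 counts, the fold is a bound at 3 counts over the group, and with 1 to 3 counts a ratio with an exact 95% interval. Libraries of a group are not said to be separate cultures, so p-values measure the spread between these samples, which may be technical. Replicate numbers are not said to pair samples.

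The family genes and the gene lists were chosen with earlier results of these data known. Named were all 8 genes, SAMD9, the 3 most significant called genes, at most, per list and main comparison, and the 3 genes of most similar profile per family gene (mean of at least 1 CPM). S100A12 is in both the myeloid and the S100 list. Alternatives were DESeq2 size factors, library totals, no filter, DESeq2 1.42.0, a fit of the compared groups alone, a replicate block, and each library left out. Promoter windows and exon overlaps came from RefSeq (GRCh38.p14) and GENCODE v29, with all 8 genes matched. Protein sequences were not used here.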

Additional observations from a re-analysis of the deposited data

Results flagged for a closer look

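The effect of doxycycline differed between VPR-D9 and KRAB-D9 cells for 4 family genes, each by a direct test of the difference in edgeR. For S100P the log2 effect was larger in VPR-D9 than in KRAB-D9 cells by 3.17 with D2000 and by 2.88 with D6, since the gene fell in KRAB-D9 cells and stayed level in VPR-D9 cells. For S100A13 the differences were 1.96 and 0.75 and for S100A4 1.42 and 0.86, where the rise was in VPR-D9 cells. For S100A11 they were 0.66 and 0.90, where the fall in KRAB-D9 cells was the larger one. Without D6 replicate 2, untreated KRAB-D9 replicate 1 or doxycycline KRAB-D9 replicate 2, the S100A4 difference with D6 missed the threshold (0.60, 0.73 and 0.73, edgeR adjusted p of 0.157, 0.0821 and 0.0758).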

How the results depend on the processing

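Of the values of single family genes under other settings, 416 kept their direction and side of the threshold, 14 lost and 4 gained a call, and none reversed. Those that bear on a statement are given beside it. One neighbour, CHTOP, reversed in D2000 with library totals (0.093, against -0.14, edgeR adjusted p = 0.103). Among counts, S100 calls in parental cells with IFN became 1 (from 0) with library totals and when the compared groups were fitted alone. Fitted alone, KRAB-D9 with IFN gave 465 genes (from 1417) and 0 S100 genes (from 1), doxycycline in the presence of IFN 3270 genes (from 4929) and D6 2327 genes (from 1461). The difference in IFN effect between lines called 133 genes without a filter, 126 with DESeq2 and 22 alone (67 in the report), and the IFN by doxycycline interaction 74, 85 and 14 (35).

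Leaving out 1 library at a time gave 467 to 781 genes for IFN in parental cells (960), 815 to 2202 and 0 to 1 S100 genes for IFN in KRAB-D9 cells, 752 to 853 for D6, 591 to 650 for IFN with doxycycline (1082), 2 to 4 S100 genes for D6 against D2000, 20 to 992 for the difference in IFN effect and 17 to 769 for the interaction. Where a group is left with 1 library, that library is assumed to vary like the others.

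With library totals, calls in D2000 split into 7195 higher and 3286 lower in place of 4853 and 5348, in D6 into 878 and 394 in place of 707 and 754, in D6 against D2000 into 2945 and 6481 in place of 4797 and 4152, with doxycycline in the presence of IFN into 3109 and 1955 in place of 2302 and 2627, with both agents into 3388 and 2204 in place of 2762 and 2773, and in the D2000 difference between lines into 4208 and 2450 in place of 2694 and 4236. The median of all genes moved by 0.23 in D2000, by -0.19 in D6 against D2000 and by 0.19 in the D2000 difference between lines.

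Same-numbered libraries mostly did not deviate together (median Pearson r of -0.01, from -0.18 to 0.27, over 36 pairs of groups). The highest value, 0.27, was between the IFN groups of parental and KRAB-D9 cells. A replicate block left the S100 calls at 2 for doxycycline in KRAB-D9 cells, 3 in D2000 and 2 in D6 and changed no other call of a family gene, with 5439, 10154 and 1444 genes called in all.

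With 2 libraries per group and few counts of S100A6, S100A8, S100A9 and S100A10, modest changes of these genes were not detectable.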
